A study of Homo sapiens with 36 samples.

Results

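The EGR, NR4A and IER early genes are 10 genes whose mRNA changes within hours of a stimulus: EGR1, EGR2, EGR3, NR4A1, NR4A2, NR4A3, IER2, IER3, IER5 and NPAS4. They were chosen by symbol, each symbol named 1 row, and the 10 rows are 10 of 57665 genes in the table. All 10 passed the filter on low counts, as did 19043 genes in all. The genes were measured in a human osteosarcoma line, U2OS, made to express Dmr-PERK, the kinase domain of mouse PERK joined to a DmrB domain. The ligand AP20187, called the dimerizer, brings the fused kinases together, and the active kinase phosphorylates eIF2α, the first step of the integrated stress response. The ATF4KO cells lack ATF4 by their label and the WT cells carry it, and the cells of both genotypes carry Dmr-PERK. Cells of each genotype were left untreated (0 h) or given dimerizer for 2, 4, 8, 16 or 24 h. A single dose is labelled, and it carries no unit. Each of the 12 groups has 3 labelled replicates, called wells here, and there are 36 libraries in all. The sources used here do not give the number of clones behind the ATF4KO cells.

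Immediate early genes need no new protein for their transcription, and their mRNAs are usually short-lived, so that levels rise and fall quickly after a signal. EGR proteins are zinc finger transcription factors, and NR4A proteins are orphan nuclear receptors that act without a known natural ligand. The IER genes share a name and not a family: IER2 and IER5 encode related nuclear proteins, while IER3 encodes a small protein tied to survival under stress. NPAS4 is a bHLH-PAS transcription factor known best from neurons. ATF4 is the transcription factor whose translation increases when eIF2α is phosphorylated.

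The libraries held between 8608783 and 16265056 expected counts, and between 26320 and 30889 genes had a count. Levels below are CPM, counts scaled to each library's total with TMM, and changes are log2 fold changes with their standard errors (SE). A gene was called where its p-value, adjusted over all 19043 tested genes in that comparison, was under 0.05. ATF4 mRNA itself lay at 259 to 274 CPM in untreated ATF4KO cells, against 310 to 323 CPM in untreated WT cells, and at 714 to 760 CPM in ATF4KO cells after 24 h, against 690 to 713 CPM in WT cells. A gene-level count does not show whether the ATF4 coding sequence is disrupted, so these values do not check the knockout label. Of 6 osteosarcoma and mesenchymal markers, VIM, SPARC, COL1A1 and RUNX2 were at 21.1 CPM or more in every library, while COL1A2 and TWIST1 stayed at or under 1.12 CPM. The 4 epithelial, 4 blood and 3 endothelial markers did not exceed 8.43 CPM in any library. The authors also deposited TPM values, in which the untreated ATF4KO columns do not match the counts of the same name. TPM levels are therefore given for untreated WT cells only, and fits on TPM are given as a check on those of the counts.

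The members differ in gene structure. In the GENCODE annotation of GRCh38, 6 of the 10 genes span less than 10 kb, against 18.9% of the 14290 tested genes with a coding transcript. IER3 is the shortest, with 1356 bases and 2 exons on the minus strand of chromosome 6 at chr6:30743199-30744554. EGR1 spans 3826 bases in 2 exons at chr5:138465490-138469315 on the plus strand, and IER5 lies in a single exon at chr1:181088712-181092899 on the plus strand. IER2 is also a single exon in the transcript used, at chr19:13150415-13154908 on the plus strand. NR4A1, with 8 exons, lies at chr12:52022832-52059507 on the plus strand. NR4A2, also with 8 exons, is at chr2:156324432-156342348 on the minus strand, and NR4A3, with 9, is at chr9:99821855-99866891 on the plus strand. EGR2 is annotated over chr10:62811996-62919900 on the minus strand and NPAS4 over chr11:66421004-66426707 on the plus strand. A gene on the other strand overlaps EGR3 (AC055854.1), NR4A1 (AC025259.3), IER2 (AC011446.2) and IER3 (IER3-AS1). The library kit keeps the strand, but the sources used here do not say whether the counting used it, so reads from these partners cannot be told apart from reads of the member.

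AU-rich elements in the 3′ UTR are a known mark of short-lived mRNAs, and their core is ATTTA. The 3′ UTR of the transcript used held ATTTA in 8 of the 10 members, against 70.7% of 13184 tested genes with a 3′ UTR of at least 100 bases. The longer core TATTTAT stood in 4 members, against 33.0% of those genes. IER3 had the densest ATTTA of the members, at 8.14 per kb, above 98.0% of the tested genes, and NR4A1 followed at 5.39 per kb. IER2 and NPAS4 had none. The first TATTTAT of each of the 4 genes is shown with its neighbouring bases, since these are the members whose 3′ UTR carries the longer element, as the mRNA reads from 5′ to 3′ in DNA letters with the element in capitals.
IER3: ctaattaaTATTTATatgtattt
IER5: taataatgTATTTATagaattaa
NR4A2: tttgtgccTATTTATgaataaat
NR4A3: tttgcctgTATTTATtgcaagac
A match in these letters is a description of the sequence and was not tied to any measured decay.

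RefSeq promoter windows (GRCh38.p14) were at hand for 7 members, with 11 windows among them, and the 250 bases before each start were searched on both strands. The CArG box is the site of serum response factor, TGACG is a core of the cyclic AMP response element, and the whole element TGACGTCA holds that core on both strands. A CArG box stood in 1.16% of all 35116 windows and in 2 of the 11 member windows: EGR1 with 2 boxes, at 105 and 83 bases before the start, and EGR2 with 1, at 71 bases. TGACG stood in 21.2% of all windows and in 6 of the 11 member windows. These were from EGR1, EGR2 (1 of its 3 windows), IER2, NPAS4 (2 overlapping windows with the same sites) and NR4A3, the last with 4 copies. The EGR site GCGNGGGCG was in 8.41% of windows and in 1 of the 11 member windows, that of EGR1. No member window held TGACGTCA, the AP-1 site TGANTCA, the composite C/EBP and ATF site TGATGNAA or the NR4A site AAAGGTCA, which stood in 1.65%, 6.57%, 3.14% and 1.05% of all windows. Of the 8 members that rose at 2 h, NR4A1 and IER5 had windows with none of these motifs. NPAS4, which was not called at 2 h, had 2 TGACG matches in each of its 2 windows, which are not shown. The 3 windows with 2 or more matches to the CArG box or TGACG among those that rose are shown, from EGR1 at chr5:138465229-138465478 on the plus strand, from EGR2 at chr10:62816367-62816616 on the minus strand (1 of its 3 starts) and from NR4A3 at chr9:99821635-99821884 on the plus strand. They read from 5′ to 3′ towards the start, with CArG boxes and TGACG, or its reverse complement CGTCA, in capitals.
EGR1: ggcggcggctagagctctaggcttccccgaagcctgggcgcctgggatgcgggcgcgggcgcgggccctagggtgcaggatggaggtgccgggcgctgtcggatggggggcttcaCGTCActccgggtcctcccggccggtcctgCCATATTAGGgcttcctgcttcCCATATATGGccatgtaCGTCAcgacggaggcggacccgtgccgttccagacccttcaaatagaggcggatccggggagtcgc
EGR2: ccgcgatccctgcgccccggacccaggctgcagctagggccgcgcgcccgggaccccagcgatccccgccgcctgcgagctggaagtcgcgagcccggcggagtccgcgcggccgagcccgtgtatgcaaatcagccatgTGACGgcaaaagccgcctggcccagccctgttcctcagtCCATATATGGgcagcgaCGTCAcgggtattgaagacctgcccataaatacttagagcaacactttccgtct
NR4A3: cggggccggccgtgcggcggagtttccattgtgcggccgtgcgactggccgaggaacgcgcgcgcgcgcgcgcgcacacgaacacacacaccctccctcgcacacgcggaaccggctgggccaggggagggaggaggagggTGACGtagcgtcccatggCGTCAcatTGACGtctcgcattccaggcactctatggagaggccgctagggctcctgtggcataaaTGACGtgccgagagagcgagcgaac
No binding was measured here, and a match or its absence says nothing on whether a factor was bound.

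In untreated WT cells the members ranged over levels that differ by gene length as well as abundance, so they were ordered by TPM, which is normalised for transcript length. IER3 was highest at 465 ± 6.01 TPM, followed by NR4A1 at 408 ± 31.5, EGR1 at 248 ± 13.4 and IER2 at 171 ± 2.34 TPM (SD, n = 3 each). IER5 stood at 55 ± 0.353, NR4A3 at 46.4 ± 5.03, NR4A2 at 28.2 ± 1.71 and EGR2 at 25.9 ± 3.59 TPM (SD, n = 3 each). NPAS4 was at 3.01 ± 0.362 TPM and EGR3 at 0.903 ± 0.187 TPM (SD, n = 3 each). The 3 wells of neighbours in this order did not overlap, except those of NR4A2 and EGR2. The early genes were thus present before any dimerizer was added, with EGR3 and NPAS4 near the lower end of what these libraries measure.

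Before treatment, ATF4KO cells held more of all 3 NR4A mRNAs than WT cells did. NR4A2 was at 96.6, 115 and 114 CPM in the 3 untreated ATF4KO wells and at 52.9, 60.7 and 57.2 CPM in the 3 untreated WT wells. NR4A3 was at 214, 251 and 266 CPM in untreated ATF4KO wells, against 126, 149 and 151 CPM in untreated WT wells. The wells of the genotypes did not overlap for either gene, and every ATF4KO well was the higher. The log2 differences were 0.95 ± 0.07 for NR4A2 (adjusted p = 7.5e-14), 0.79 ± 0.09 for NR4A3 (adjusted p = 3.8e-09) and 0.34 ± 0.06 for NR4A1 (adjusted p = 5.3e-05), each with 3 wells per genotype. EGR2 was also higher, by 0.32 ± 0.10 (adjusted p = 0.01), while NPAS4 was lower, at −0.77 ± 0.21 (adjusted p = 0.0052), and IER5 was lower, at −0.13 ± 0.04 (adjusted p = 0.015). In all, 4 members were higher and 2 lower in untreated ATF4KO cells, where 11.6% of tested genes were higher and 11.9% lower. EGR1 at −0.02 ± 0.08, EGR3 at −0.15 ± 0.29, IER2 at 0.03 ± 0.05 and IER3 at 0.00 ± 0.04 were not called. The EGR2 call was lost with DESeq2 (adjusted p = 0.19), without WT replicate 1 (adjusted p = 0.11) or without ATF4KO replicate 2 (adjusted p = 0.084), and that of IER5 without WT replicate 1, ATF4KO replicate 1 or ATF4KO replicate 2 (adjusted p of 0.079, 0.064 and 0.079). By limma on log2(TPM + 1) with all columns only NPAS4 kept its call (−0.84, adjusted p = 0.0084) and the NR4A genes and EGR2 had negative values; without the untreated ATF4KO column that matches no count library, NR4A1, NR4A2 and NR4A3 were called, at 0.42, 1.01 and 0.87, and NPAS4 was not (−0.48, adjusted p = 0.078). The labels do not say whether wells were separate cultures, so the p-values measure the spread between wells, which may be technical. Each library is scaled to its own total, and in bulk RNA fewer cells with a transcript and less of it per cell cannot be told apart.

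**Figure D1:**
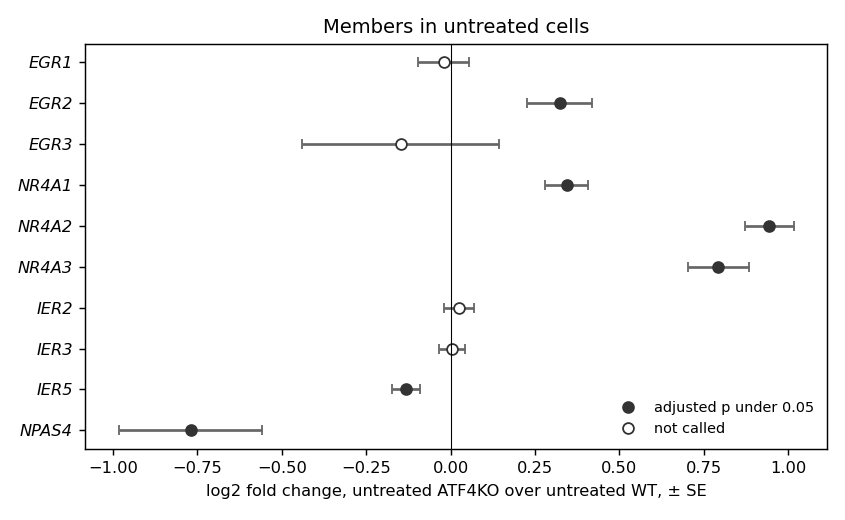
Log2 fold change of each of the 10 members in untreated ATF4KO over untreated WT cells (horizontal axis, 3 wells per genotype), with bars of 1 SE; filled points have an adjusted p under 0.05. NR4A2 lies farthest to the right at 0.95 and NPAS4 farthest to the left at −0.77, while EGR1, IER2 and IER3 lie near 0.

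EGR1, the zinc finger factor that heads the early response to growth signals, rose at 2 h in both genotypes and then parted between them. At 0, 2 and 4 h it was at 492, 542 and 495, then 1234, 1463 and 1556, then 282, 335 and 341 CPM in the ATF4KO wells. Over the same times it was at 489, 532 and 531, then 1497, 1772 and 1846, then 385, 472 and 469.8 CPM in the WT wells. Every 2 h well was above every untreated well of its genotype, and every 4 h well was below. The change at 2 h was 1.48 ± 0.07 in ATF4KO cells (adjusted p = 1e-18) and 1.72 ± 0.07 in WT cells (adjusted p = 1.6e-21), the widest among the members in each genotype. At 4 h it was −0.68 ± 0.08 in ATF4KO cells (adjusted p = 2.7e-09) and −0.23 ± 0.08 in WT cells (adjusted p = 0.016), and the WT call was lost with DESeq2 (adjusted p = 0.077) and without WT 4 h replicate 1 (adjusted p = 0.24), WT untreated replicate 2 (0.065) or replicate 3 (0.059). At 8 h EGR1 stood at 373, 361 and 352 CPM in the ATF4KO wells, against 163, 174 and 197 CPM in the WT wells. At 8 h the ATF4KO wells were thus all above the WT wells, after being all below them at 4 h. The step from 4 to 8 h in ATF4KO cells was 0.19 ± 0.08 and was not called (adjusted p = 0.061), though it was in the fit to its 2 groups alone (adjusted p = 0.0034) and with no filter on low counts (adjusted p = 1.5e-06), while in WT cells EGR1 fell, by a log2 change of −1.31 ± 0.09 (adjusted p = 3.3e-16). By 16 h the level had dropped to 48.1, 51.0 and 39.9 CPM in ATF4KO wells and 61.5, 62.7 and 54.8 CPM in WT wells. At 24 h it was 55.7, 58.6 and 71.2 CPM in ATF4KO wells and 135, 142 and 149.5 CPM in WT wells, with no overlap between genotypes. The partial return after 16 h was 0.42 ± 0.13 in ATF4KO cells (adjusted p = 0.018) and 1.26 ± 0.11 in WT cells (adjusted p = 5.3e-12), and both genotypes stayed below their untreated level. In ATF4KO cells the return was not called without replicate 3 of 16 h (adjusted p = 0.097) or of 24 h (adjusted p = 0.16).

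EGR2, a related factor known for its role in myelination, also peaked at 2 h and was down to a few counts per library by 16 h. It averaged 55.6 ± 5.02 CPM untreated and 117 ± 11.6 CPM at 2 h in ATF4KO cells, and 44.6 ± 4.44 CPM untreated and 108 ± 8.02 CPM at 2 h in WT cells (SD, n = 3 each). The rise at 2 h was 1.08 ± 0.09 in ATF4KO cells (adjusted p = 9.2e-13) and 1.29 ± 0.09 in WT cells (adjusted p = 2.8e-15). By 8 h the wells held 6.77, 4.50 and 6.46 CPM in ATF4KO cells and 1.17, 1.91 and 2.42 CPM in WT cells. All 3 ATF4KO wells were above all 3 WT wells at that time. At 16 h EGR2 averaged 0.373 ± 0.155 CPM in ATF4KO cells and 0.350 ± 0.037 CPM in WT cells (SD, n = 3 each), changes of −7.07 ± 0.62 and −6.96 ± 0.58 from the untreated level. These late values rest on 13 counts in the 3 ATF4KO libraries and 15 counts in the 3 WT libraries. EGR2 had the lowest log2 fold change of the members at 16 h in both genotypes, adjusted p = 2e-26 in ATF4KO and 1.1e-26 in WT cells.

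EGR3, the third of these zinc finger factors, encoded on chromosome 8, was the least abundant member by TPM, and its 2 h change was not called in either genotype. It gave 1.56, 2.23 and 2.59 CPM in untreated ATF4KO wells and 2.24, 3.05 and 2.04 CPM in untreated WT wells. At 2 h the wells of each genotype overlapped their untreated wells, with changes of 0.16 ± 0.30 in ATF4KO cells (95% interval −0.42 to 0.74) and 0.13 ± 0.28 in WT cells (95% interval −0.41 to 0.68). A rise of the size seen for NR4A1 in WT cells, 0.76, lies outside the WT interval, and one of the size seen for EGR1 lies outside both. At 4 h EGR3 was lower, with a change of −0.86 ± 0.35 in ATF4KO cells (adjusted p = 0.036) and −0.78 ± 0.33 in WT cells (adjusted p = 0.049). Both calls were lost with DESeq2 (adjusted p = 0.1 in ATF4KO and 0.12 in WT cells), with no filter on low counts (0.073 and 0.097), and without any 1 of 4 libraries in each genotype, where the adjusted p reached 0.19 in ATF4KO and 0.18 in WT cells. The WT libraries held 3 counts in all at 16 h and 3 at 24 h, against 94 counts untreated. Scaled to library size, the summed count was 34.2-fold lower at 16 h (exact 95% interval 11.4 to 169) and 27.2-fold lower at 24 h (9.03 to 134) than in untreated WT cells. In ATF4KO cells it had 5 counts at 16 h and 8 at 24 h, against 80 untreated. Intervals on counts cover counting error only.

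**Figure D2:**
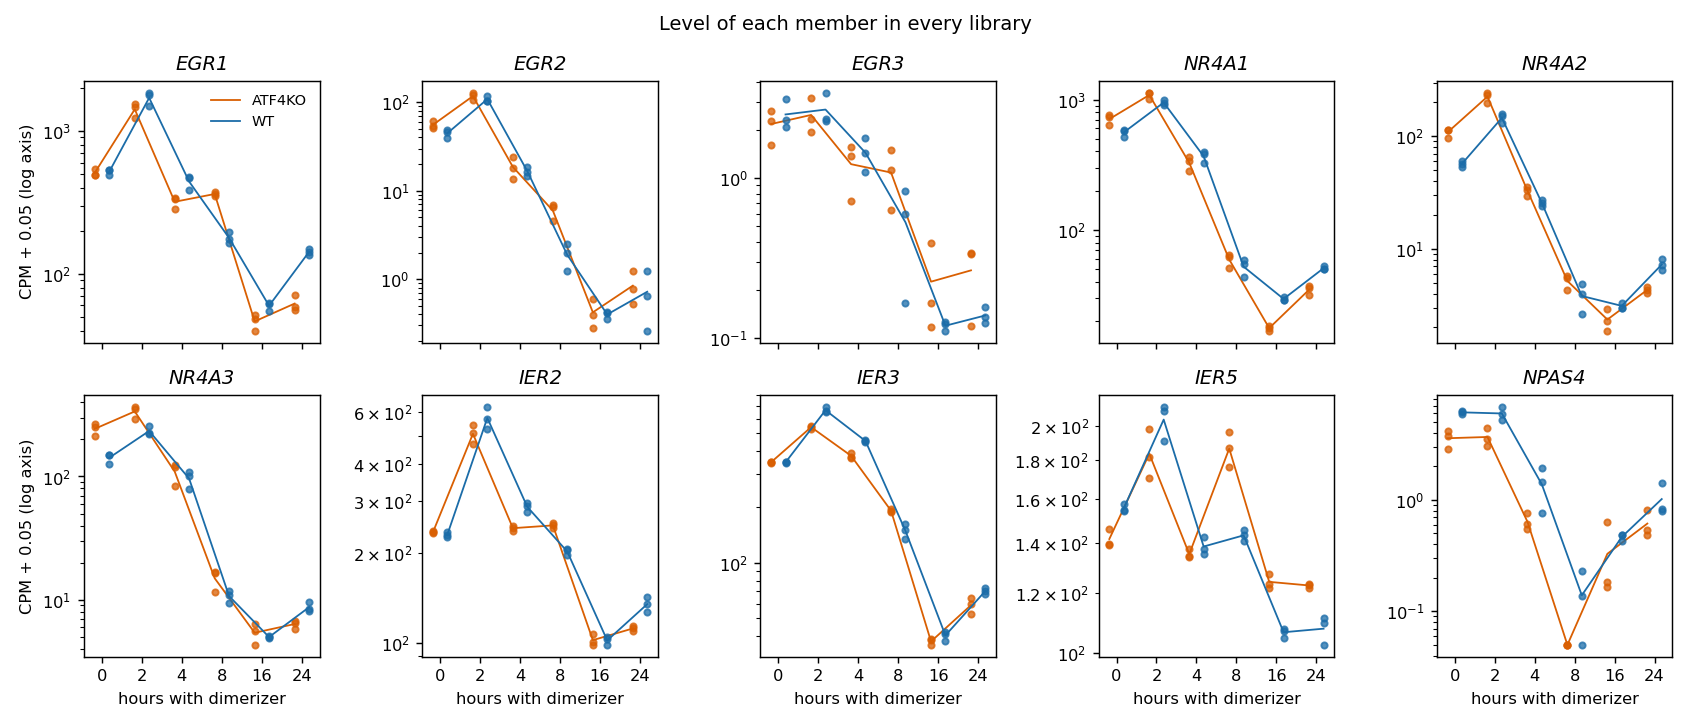
Level of each member in every library: hours with dimerizer (horizontal axis) against CPM plus 0.05 on a log axis whose range differs by gene; each point is 1 well, lines join the means of 3 wells, and ATF4KO is drawn in orange and WT in blue. Most members peak at 2 h and are lowest at 16 h; IER5 has a second high at 8 h in ATF4KO cells, where its wells lie between 176.5 and 196 CPM, and NPAS4 wells at 0.05 had no count.

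The NR4A receptors rose at 2 h and then fell by more than 10-fold in both genotypes. NR4A1, the most abundant of them by TPM, averaged 708 ± 64.6, 1083 ± 61.2, 327 ± 39.3, 59.2 ± 7.38, 17.6 ± 0.746 and 34.8 ± 2.94 CPM at 0, 2, 4, 8, 16 and 24 h in ATF4KO cells (SD, n = 3 each). In WT cells it averaged 559 ± 35.9, 949 ± 38.6, 367 ± 36, 52.2 ± 7.84, 29.5 ± 1.09 and 50.8 ± 1.6 CPM at the same times (SD, n = 3 each). ATF4KO cells thus began above WT cells and ended below them. At 24 h the wells were at 31.4, 36.9 and 36 CPM in ATF4KO cells and 49.8, 52.6 and 49.9 CPM in WT cells, without overlap. The 16 h change was −5.34 ± 0.13 in ATF4KO cells (adjusted p = 2.9e-35) and −4.25 ± 0.10 in WT cells (adjusted p = 2.3e-34).

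NR4A2, which in the brain is needed for dopamine neurons, followed the same course from a higher start in ATF4KO cells. At 2 h it reached 199.5, 234 and 243 CPM in ATF4KO wells and 130.4, 151 and 157 CPM in WT wells, and no wells of the genotypes overlapped. At 16 h it was at 1.82, 2.23 and 2.86 CPM in ATF4KO wells and 2.96, 3.27 and 2.96 CPM in WT wells, so that the order had turned round. At 24 h the wells held 4.23, 4.55 and 4.04 CPM in ATF4KO cells and 8.02, 6.37 and 7.21 CPM in WT cells. From 0 to 2 h NR4A2 changed by 1.05 ± 0.06 in ATF4KO cells (adjusted p = 1e-16) and by 1.37 ± 0.07 in WT cells (adjusted p = 2.1e-19). From 0 to 24 h it changed by −4.67 ± 0.17 in ATF4KO cells (adjusted p = 1.5e-31) and by −2.98 ± 0.14 in WT cells (adjusted p = 2e-24).

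NR4A3, the third receptor, had the smallest 2 h rise of the family, 0.47 ± 0.09 in ATF4KO cells (adjusted p = 6.7e-05) and 0.73 ± 0.09 in WT cells (adjusted p = 3.2e-08). It averaged 244 ± 26.9 CPM untreated, 337 ± 39.9 at 2 h and 5.35 ± 1.03 at 16 h in ATF4KO cells, and 142 ± 13.9, 234 ± 19.3 and 4.93 ± 0.0724 CPM at those times in WT cells (SD, n = 3 each). At 24 h all 3 ATF4KO wells, 6.73, 5.71 and 6.48 CPM, were below the WT wells, 8.37, 8.02 and 9.54 CPM. From 0 to 24 h NR4A3 changed by −5.28 ± 0.23 in ATF4KO cells (adjusted p = 2.2e-29) and by −4.04 ± 0.21 in WT cells (adjusted p = 8.7e-25).

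All 3 IER genes peaked at 2 h in WT cells, and IER2 and IER5 had the log2 changes nearest to 0 among the members at 16 h. IER2, a nuclear protein that lies among the first genes to answer serum, was at 236, 238 and 234 CPM untreated, 468, 509 and 544 at 2 h, 239, 243 and 248 at 4 h, and finally 253, 244 and 249 at 8 h in ATF4KO wells. In WT wells it was at 237, 227 and 231 CPM untreated, 526, 571 and 624 at 2 h, 277, 288 and 297 at 4 h, and finally 197, 206 and 205 at 8 h. The ATF4KO wells at 4 h were all below the WT wells, and at 8 h all above them. IER2 rose by 1.11 ± 0.04 at 2 h in ATF4KO cells (adjusted p = 2.9e-22) and by 1.31 ± 0.04 in WT cells (adjusted p = 1.3e-25). At 4 h it was still higher in WT cells, by 0.31 ± 0.05 (adjusted p = 3e-07), and the ATF4KO change of 0.04 ± 0.05 was not called (adjusted p = 0.48). At 16 h it was lower in both, at −1.21 ± 0.05 in ATF4KO and −1.19 ± 0.05 in WT cells.

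IER3 had nearly the same level in every untreated well, 347, 351 and 349 CPM in ATF4KO wells and 348, 349.6 and 347 CPM in WT wells. It reached 529, 543 and 546 CPM at 2 h in ATF4KO wells, against 649, 657 and 692 CPM in WT wells. At 4 h it was at 369, 373 and 391 CPM in ATF4KO wells and 455, 461 and 446 CPM in WT wells. The ATF4KO wells were below all WT wells at both times, and the order was the other way at 8 h, with 189, 195 and 189 CPM in ATF4KO wells and 134, 149 and 162 CPM in WT wells. IER3 rose by 0.63 ± 0.04 at 2 h in ATF4KO cells (adjusted p = 1.7e-16) and by 0.94 ± 0.04 in WT cells (adjusted p = 1.1e-22). It was the one member called higher at 4 h in both genotypes, at 0.11 ± 0.04 in ATF4KO cells (adjusted p = 0.017) and 0.38 ± 0.04 in WT cells (adjusted p = 3.8e-11), and the ATF4KO call was lost without 4 h replicate 3 (adjusted p = 0.11). The 16 h change was −3.21 ± 0.06 in ATF4KO cells (adjusted p = 1.5e-37) and −3.11 ± 0.05 in WT cells (adjusted p = 1e-38).

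IER5, a nuclear protein known to bind protein phosphatase 2A and heat shock factor 1, moved little and had 2 highs in ATF4KO cells. It was at 139, 139 and 146 CPM untreated, 171, 182 and 198 at 2 h, 134, 137 and 134 at 4 h, and finally 196, 187 and 177 at 8 h in ATF4KO wells. In WT wells it was at 157, 154 and 155 CPM untreated, 191, 212 and 209 at 2 h, 142, 137 and 135 at 4 h, and finally 143, 145 and 141 at 8 h. The 8 h wells of ATF4KO cells were above their own 4 h wells and above all WT wells of 8 h. The 2 h rise was 0.37 ± 0.04 in ATF4KO cells (adjusted p = 4.9e-09) and 0.39 ± 0.04 in WT cells (adjusted p = 1.6e-10). Between 4 and 8 h IER5 rose by 0.46 ± 0.04 in ATF4KO cells (adjusted p = 2.3e-12), and the WT step of 0.05 ± 0.04 was not called (adjusted p = 0.43). At 24 h it averaged 123 ± 0.85 CPM in ATF4KO cells and 108 ± 4.57 CPM in WT cells (SD, n = 3 each), and each was below its own untreated level, by −0.21 ± 0.04 and −0.53 ± 0.04 on the log2 scale.

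NPAS4 did not show the 2 h peak either. The 2 h change was 0.03 ± 0.23 in ATF4KO cells (95% interval −0.42 to 0.48) and −0.04 ± 0.19 in WT cells (95% interval −0.42 to 0.35), and the wells overlapped. NPAS4 was at 2.81, 4.09 and 3.68 CPM in untreated ATF4KO wells and 6.26, 5.81 and 6.11 CPM in untreated WT wells. At 8 h none of the 3 ATF4KO libraries held a count, against 130 counts untreated. With the 0 set to a floor of 3 counts over the group, that is 45.1-fold lower. The WT libraries held 3 counts at 8 h, against 241 untreated, a rate 63.1-fold lower (exact 95% interval 21.3 to 308). Counts were seen again at 16 h, 8 in ATF4KO libraries and 18 in WT libraries, and at 24 h, 21 in ATF4KO libraries and 32 in WT libraries. Against 8 h, the 16 h rate was 4.32-fold higher in WT cells (1.26 to 22.9, adjusted p = 0.018). In ATF4KO cells it was called higher too (adjusted p = 0.0018), by 3.14-fold with the 8 h group set to the floor of 3 counts. That floor is a setting, so the 3.14 and 45.1 carry no interval. The 3 ATF4KO libraries of 16 h held 2, 5 and 1 counts. By limma on log2(TPM + 1) neither genotype kept this call (adjusted p = 0.85 in ATF4KO and 0.75 in WT cells). The WT call was lost with DESeq2 (adjusted p = 0.056) and without 8 h replicate 1 (adjusted p = 0.079) or 3 (adjusted p = 0.062). NPAS4 was thus lowest at 8 h, earlier than the other 9 members, whose lowest group means were at 16 h or, for IER5 in ATF4KO cells, at 24 h.

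Counts over the 10 members are given beside those over all tested genes. At 2 h 8 members rose and none fell in ATF4KO cells, where 9.85% of tested genes were higher and 8.5% lower, and the same 8 of 10 rose in WT cells, where 12.2% were higher and 10.4% lower. EGR3 and NPAS4 were the 2 not called in each. The median change of the 10 members was 0.62 in ATF4KO cells and 0.85 in WT cells, and the median of all tested genes was −0.01 in both. At 4 h 1 member was higher and 7 were lower in ATF4KO cells, with 22.1% of tested genes higher and 20.3% lower. In WT cells 2 were higher (IER2 and IER3) and 8 lower at 4 h, with 23.6% higher and 21.1% lower among all tested genes. At 8 h 8 members were lower and IER5 was higher, by 0.39 ± 0.04, in ATF4KO cells (31.1% lower and 30.7% higher among tested genes), while all 10 were lower in WT cells (29.6% lower). All 10 were lower at 16 h in ATF4KO cells (32.7%) and WT cells (32.8%), and at 24 h in ATF4KO cells (33%) and WT cells (32.4%). The median change of the 10 members at 16 h was −3.74 in ATF4KO cells and −4.02 in WT cells, and the median of all tested genes was −0.03 and −0.02. With dimerizer given at each time and no vehicle wells, no late untreated wells and no cells without Dmr-PERK, the kinase, the ligand and time in culture cannot be told apart.

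**Figure D3:**
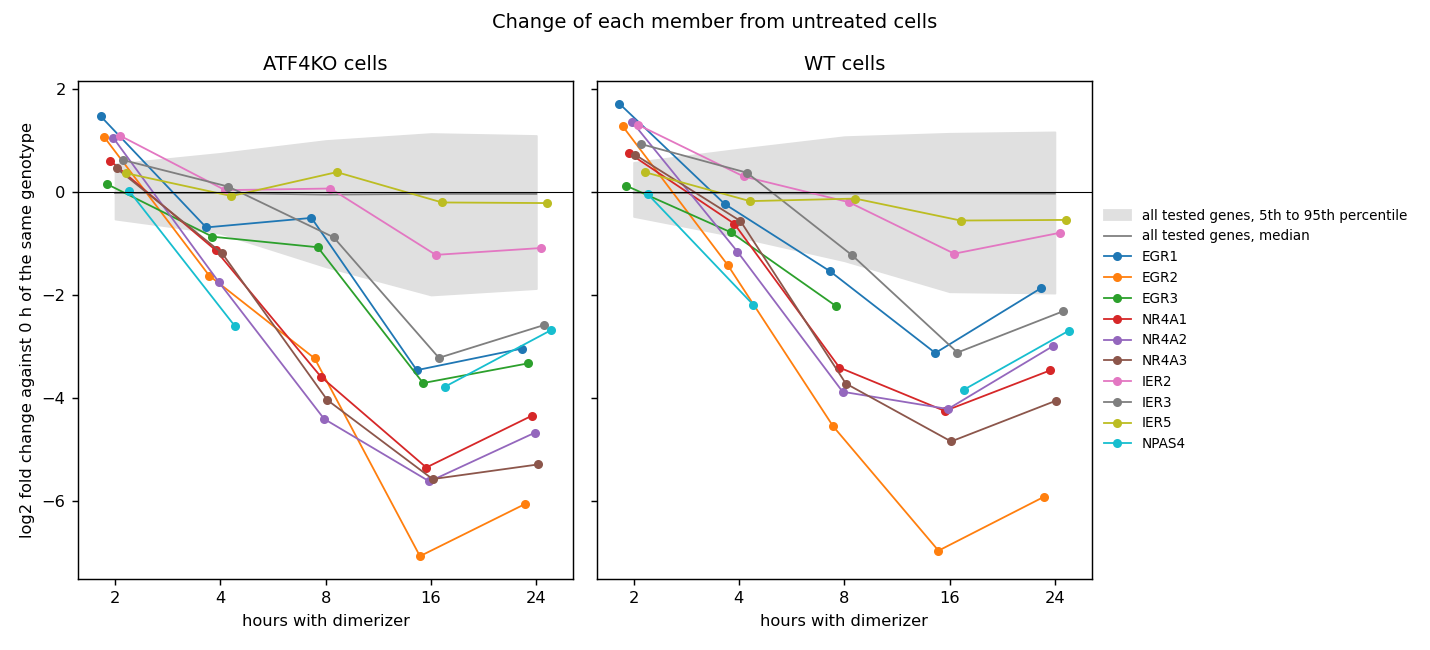
Log2 fold change of each member against untreated cells of the same genotype (vertical axis) by hours with dimerizer (horizontal axis), ATF4KO left and WT right; the grey band spans the 5th to 95th percentile of all tested genes and changes resting on a group with 3 or fewer counts are not drawn. At 2 h EGR1 is highest, at 1.48 in ATF4KO and 1.72 in WT cells, and by 16 h EGR2 is lowest, at −7.07 and −6.96, while IER5 and IER2 lie within the grey band at that time.

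The steps between neighbouring times show a fall to 16 h for most members and a return of some of them by 24 h. From 2 to 4 h all 10 members fell in ATF4KO cells, where 16% of tested genes fell, and all 10 fell in WT cells, where 17.3% did. The step of EGR3 was −1.02 ± 0.34 in ATF4KO and −0.91 ± 0.33 in WT cells. It was not called without replicate 3 of 2 h or of 4 h in ATF4KO cells (adjusted p = 0.095 for each), nor in WT cells with DESeq2 (adjusted p = 0.075) or without 1 of 3 of its libraries (adjusted p up to 0.14). From 4 to 8 h 6 fell and IER5 rose in ATF4KO cells (20.4% lower and 23.1% higher among tested genes), whereas 9 fell in WT cells (18% lower). The median change over that step was −1.29 in ATF4KO cells. The 3 members not called there were EGR1, EGR3 (−0.21 ± 0.38) and IER2 (0.03 ± 0.05). From 8 to 16 h 9 members fell and NPAS4 rose in ATF4KO cells (25.2% lower, 26.8% higher), and 8 fell and NPAS4 rose in WT cells (23.2% lower, 24.6% higher). From 16 to 24 h 4 members rose in ATF4KO cells (EGR1, NR4A1, NR4A2 and IER3) and none fell, with 7.35% of tested genes higher. Over the same step 5 rose in WT cells (those 4 and IER2), with 7.28% higher. The return of IER3 was 0.64 ± 0.07 in ATF4KO cells (adjusted p = 9.1e-10) and 0.80 ± 0.06 in WT cells (adjusted p = 2.1e-13). That of NR4A1 was 1.00 ± 0.15 in ATF4KO cells (adjusted p = 2.8e-06) and 0.79 ± 0.12 in WT cells (adjusted p = 3.9e-06). NR4A2 returned by 0.95 ± 0.29 in ATF4KO cells (adjusted p = 0.014), which was not called without 16 h replicate 1 (adjusted p = 0.14) or 24 h replicate 2 (adjusted p = 0.053), and by 1.23 ± 0.22 in WT cells (adjusted p = 5.5e-05).

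Whether the response differed with the genotype was tested as the change in ATF4KO cells minus the change in WT cells. At 2 h this difference was called for 1 member, IER3, at −0.31 ± 0.05 (adjusted p = 0.00061), with 0.289% of tested genes lower. NR4A2 gave −0.32 ± 0.09 (adjusted p = 0.22), NR4A3 −0.26 ± 0.12 (adjusted p = 0.65), EGR1 −0.25 ± 0.10 (adjusted p = 0.56) and IER2 −0.20 ± 0.06 (adjusted p = 0.23), and these 4 were called, for 5 in all, where no filter on low counts was set. Without WT 2 h replicate 1, NR4A2 and IER2 were called beside IER3. At 4 h 6 members had a lower change in ATF4KO cells, with 2.39% of tested genes lower. They were NR4A3 (−0.62 ± 0.14), NR4A2 (−0.59 ± 0.13), NR4A1 (−0.52 ± 0.10), EGR1 (−0.46 ± 0.11), IER3 (−0.27 ± 0.06) and IER2 (−0.27 ± 0.07). The call of EGR1 was lost with DESeq2 (adjusted p = 0.058) and without ATF4KO 4 h replicate 1 (adjusted p = 0.056), and that of NR4A3 with DESeq2 (adjusted p = 0.11). By limma on log2(TPM + 1), with or without the untreated ATF4KO column that matches no count library, none of these 6 nor IER3 at 2 h was called; without it their values were −0.24 to −0.64 at 4 h and −0.33 at 2 h. At 8 h 5 members had a higher change in ATF4KO cells, with 11.3% of tested genes higher, and of these EGR1, IER2 and IER3 were among the 6 with a lower one at 4 h. EGR2 differed by 1.32 ± 0.34 (adjusted p = 0.0024), EGR1 by 1.04 ± 0.12 (adjusted p = 2.5e-09) and IER5 by 0.51 ± 0.06 (adjusted p = 4.9e-09). IER3 differed by 0.35 ± 0.06 and IER2 by 0.27 ± 0.07 at that time. EGR3 gave 1.15 ± 0.55 (adjusted p = 0.14), and none of the NR4A genes was called at 8 h. EGR2 and IER2 lost their 8 h calls by limma on log2(TPM + 1) without that column, at 0.63 (adjusted p = 0.3) and 0.22 (adjusted p = 0.099).

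At 16 h the called differences were negative for NR4A1 and NR4A2, and at 24 h for the 3 NR4A genes, EGR1, IER2 and IER3. The difference of IER5 was positive at both times. At 16 h NR4A2 had a difference of −1.41 ± 0.31 (adjusted p = 3e-04) and NR4A1 of −1.10 ± 0.17 (adjusted p = 8.8e-07), with 11% of tested genes lower. IER5 was higher by 0.35 ± 0.06 (adjusted p = 1.1e-05), with 16.7% of tested genes higher. EGR1, at −0.33 ± 0.15, and NR4A3, at −0.73 ± 0.36, were not called at 16 h (adjusted p = 0.092 and 0.13), but both were where the fit held the 4 groups alone (adjusted p = 0.0014 and 0.02) or no filter on low counts was set. At 24 h 6 members were lower, with 12.1% of tested genes lower: NR4A2 by −1.69 ± 0.22 (adjusted p = 4.1e-08), NR4A3 by −1.24 ± 0.31, EGR1 by −1.17 ± 0.13 (adjusted p = 1.3e-09), NR4A1 by −0.88 ± 0.13, IER2 by −0.30 ± 0.07 and IER3 by −0.26 ± 0.07. IER5 was again the 1 member higher, by 0.33 ± 0.06, with 17.7% of tested genes higher. The differences for NR4A genes include their higher untreated level in ATF4KO cells. At 4 h the wells of NR4A2 lay at 29.6, 33.4 and 35.5 CPM in ATF4KO cells, all above the 23.9, 25.7 and 27.0 CPM of WT cells, although its change was the lower one. NR4A3 at 16 h averaged 5.35 ± 1.03 CPM in ATF4KO cells and 4.93 ± 0.0724 CPM in WT cells (SD, n = 3 each), and the wells overlapped. At 24 h every ATF4KO well of EGR1 and of the 3 NR4A genes lay below every WT well in CPM. No fold is given for the difference of NPAS4 at 8 h or of EGR3 at 16 and 24 h, where a group had 3 or fewer counts.

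**Figure D4:**
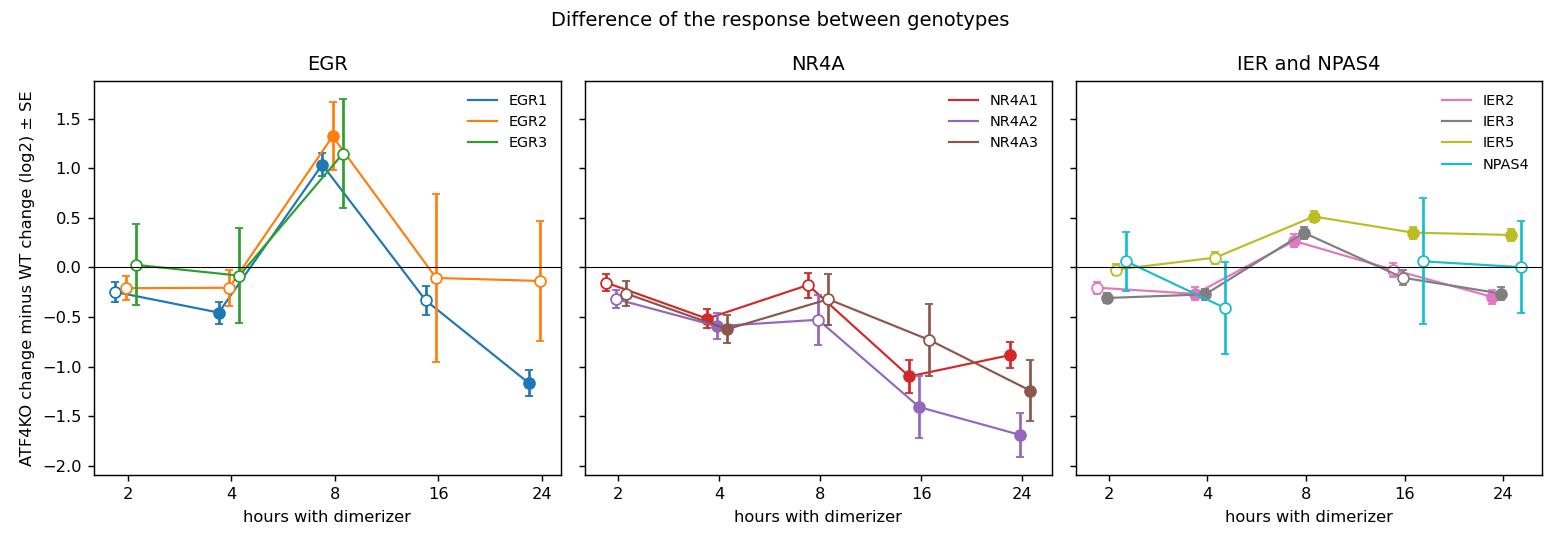
Change in ATF4KO cells minus change in WT cells (log2, vertical axis, bars of 1 SE) by hours with dimerizer (horizontal axis) for the EGR genes, the NR4A genes, and the IER genes with NPAS4; filled points have an adjusted p under 0.05 and values resting on 3 or fewer counts are not drawn. EGR1 is at −0.46 at 4 h, 1.04 at 8 h and −1.17 at 24 h, and the NR4A genes lie at or below −0.15 at every time.

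Other early genes were read from lists of related function, and their counts at 2 h stand beside 9.85% of tested genes higher and 8.5% lower in ATF4KO cells, and 12.2% higher and 10.4% lower in WT cells. Of 7 AP-1 subunits, the FOS and JUN proteins that bind DNA in pairs, 6 rose and none fell at 2 h in ATF4KO cells, and 7 rose in WT cells. JUN rose by 1.59 ± 0.07 in ATF4KO and 1.63 ± 0.07 in WT cells, FOS by 1.30 ± 0.09 in ATF4KO and 1.71 ± 0.08 in WT cells, and JUNB by 0.46 ± 0.04 in ATF4KO and 0.52 ± 0.04 in WT cells. Among 5 tested relatives and partners of EGR and NR4A proteins, EGR4, an EGR factor outside the 10 members, rose by 1.40 ± 0.13 in ATF4KO and 1.89 ± 0.15 in WT cells. EGR4 averaged 14.5 ± 2.04, 38.3 ± 2.67 and 21.3 ± 4.86 CPM at 0, 2 and 4 h in ATF4KO cells (SD, n = 3 each). In WT cells it averaged 8.02 ± 0.98, 29.6 ± 2.93 and 27.7 ± 6.61 CPM at those times (SD, n = 3 each). NAB1 and NAB2, which bind EGR proteins and repress them, fell by 0.49 ± 0.05 and 0.28 ± 0.05 in ATF4KO cells, and by 0.48 ± 0.05 and 0.43 ± 0.05 in WT cells. RXRB, a nuclear receptor that pairs with others, was higher in WT cells, at 0.14 ± 0.05, and gave 0.08 ± 0.05 in ATF4KO cells, which was not called (adjusted p = 0.33). IER5L, a relative of IER5, fell by 0.78 ± 0.09 in WT cells and gave −0.24 ± 0.09 in ATF4KO cells, which was not called (adjusted p = 0.064). The difference of the 2 h changes between genotypes was called for none of these 14 genes.

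Serum response factor and CREB are known to act on promoters of early genes, and the same 2 h shares of tested genes, 9.85% higher in ATF4KO and 12.2% in WT cells, stand beside their counts. Of 6 genes for serum response factor and its cofactors, none was called in ATF4KO cells and 2 rose in WT cells, MRTFA by 0.18 ± 0.04 and MRTFB by 0.18 ± 0.06. Of 8 CREB factors and coactivators, 4 rose in each genotype, with CREBBP, EP300 and CRTC2 at 0.18 ± 0.04, 0.13 ± 0.04 and 0.18 ± 0.05 in WT cells. Of 8 tested feedback genes of the MAP kinase pathway, 5 rose and 1 fell in ATF4KO cells, and 6 rose and 1 fell in WT cells. DUSP1, a phosphatase that switches MAP kinases off, rose by 1.16 ± 0.07 in ATF4KO and 1.36 ± 0.06 in WT cells, and DUSP8 and DUSP10 rose by 0.78 ± 0.06 and 1.16 ± 0.14 in WT cells, where SPRY2 fell by 0.20 ± 0.07. Of 6 regulators of mRNA decay, 5 rose in each genotype. They include ZFP36, which binds AU-rich elements, at 0.70 ± 0.10 in ATF4KO and 0.86 ± 0.09 in WT cells, with ZFP36L1 and ZFP36L2 at 0.38 ± 0.03 and 0.44 ± 0.04 in WT cells. The difference of the 2 h changes between genotypes was called for 1 of the 6 decay regulators, lower in ATF4KO cells, beside 0.289% of tested genes lower. That difference was called for none of the serum response factor, CREB or MAP kinase feedback genes.

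Of 6 tested genes for the EGF receptor and its ligands, 1 rose and 1 fell in ATF4KO cells and 1 fell in WT cells at 2 h, HBEGF at −0.33 ± 0.06. Of 19 tested other early response genes, 16 rose and 2 fell in ATF4KO cells, and 15 rose and 2 fell in WT cells, ARC by 0.31 ± 0.06 and TRIB1 by 0.21 ± 0.04. MYC, ATF3 and RHOB rose by 1.52 ± 0.04, 1.93 ± 0.09 and 0.76 ± 0.04 in WT cells. The difference of the 2 h changes between genotypes was called for none of the 6 and none of the 19. At 8 h the difference between genotypes was called in these lists too, beside 11.3% of tested genes higher and 6.99% lower in ATF4KO cells. The change was higher in ATF4KO cells for 3 of 7 AP-1 subunits, among them FOS at 0.69 ± 0.19 and JUNB at 0.72 ± 0.05, and none was called lower. None was called lower among 5 relatives and partners of EGR and NR4A proteins either, where NAB1 and NAB2 were higher at 0.37 ± 0.08 and 0.64 ± 0.08. The genes for serum response factor and its cofactors had 3 of 6 higher, the CREB list 2 of 8 and the IER-named relatives 1 of 2, each with none called lower. The other lists went both ways: 5 of 6 decay regulators were higher and 1 lower, 3 of 8 MAP kinase feedback genes higher and 1 lower, 7 of 19 other early genes higher and 2 lower, and 1 of 6 genes of the EGF receptor and its ligands higher and 1 lower. At 24 h 9 of 19 other early genes had a lower change and 1 a higher one, beside 12.1% of tested genes lower and 17.7% higher. The EGF receptor list had 4 of 6 lower and 1 higher, and the MAP kinase list 3 of 8 lower and none higher. Decay regulators had 2 lower and 3 higher, the serum response factor list 2 higher, and the remaining lists at most 1 each way. At 16 h 6 of 19 other early genes were higher and 5 lower, beside 16.7% of tested genes higher and 11% lower. The EGF receptor list then had 1 higher and 4 lower, decay regulators 3 and 1, and the serum response factor list 2 and 1. AP-1 subunits had 3 higher and none lower, MAP kinase genes 2 lower and none higher, and the remaining lists at most 1 each way. At 4 h 5 of 19 other early genes were lower and none higher, beside 2.39% of tested genes lower. The EGF receptor list had 2 of 6 higher and 1 lower, decay regulators 1 of 6 higher and 2 lower, and the IER-named relatives 1 of 2 higher. The EGR and NR4A partners, the serum response factor list and the MAP kinase list each had 1 lower and none higher. No AP-1 or CREB gene was called. The share of all tested genes higher at 4 h is not given here.

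The course over the 12 group means was compared with that of other tested genes averaging at least 10 CPM, by Pearson's r of log2 CPM. These points share libraries, and r is given as a description. The most alike of each member were FOS (0.976), MCL1 (0.98) and IER2 (0.975) for EGR1, and DUSP2 (0.993), CTGF (0.985) and NINL (0.984) for EGR2. NINL (0.989), EGR2 (0.982) and NOTCH3 (0.981) were nearest to EGR3. For NR4A1 they were ZCCHC24 (0.995), NR4A3 (0.993) and RCAN1 (0.987), for NR4A2 CITED2 (0.986), KIAA0355 (0.985) and NR4A1 (0.982), and for NR4A3 NR4A1 (0.993), PDK2 (0.99) and ZCCHC24 (0.99). IER3 was most like JUNB (0.993), PER1 (0.992) and ZC3H12A (0.989), and IER2 like NFKBIA (0.976), EGR1 (0.975) and ARID5A (0.971). Nearest to IER5 were SLC19A2 (0.975), MORC3 (0.949) and C2orf27A (0.922). Among the members, r with IER5 was 0.872 for IER2, 0.831 for EGR1, 0.812 for EGR3, 0.774 for EGR2, 0.759 for IER3, 0.62 to 0.648 for the NR4A genes and 0.338 for NPAS4. NPAS4 was nearest to SCD5 (0.97), AC092669.3 (0.968) and MAP1A (0.965), and among the other members its r ran up to 0.865, with NR4A2.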

How the data were processed

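RNA was measured by sequencing in 36 libraries, 3 wells in each of 12 groups, with groups taken from the labels. The authors deposited expected counts per gene, made with Salmon 0.9.1 against GRCh38 after read checks with FastQC 0.11.5, per the submitters' processing notes, and the sources used here give neither the annotation release nor the strand setting. The authors also deposited TPM, whose lowest value is 0.102292 in every column, so a true 0 is not shown there. Of the 36 TPM columns, 33 correlated best with the count column of their own name; for untreated ATF4KO cells, column 1 followed count replicate 2 (r = 0.96 across 10522 genes), column 2 followed replicate 3 (r = 0.966) and column 3 correlated at most at r = 0.52 with any.

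Expected counts were rounded to whole numbers and kept where filterByExpr passed (19043 of 57665 genes). Libraries were scaled by TMM, and edgeR 4.0.16 (R 4.3.3) fitted 12 group means with its quasi-likelihood F-test in 24 contrasts, with Benjamini-Hochberg adjustment over all tested genes within each and a threshold of 0.05, two-sided. Library totals were 8608783 to 16265056, which leaves EGR3 and NPAS4 few counts at late times; no fold is printed for a fitted group with 3 or fewer counts, and ratios of summed counts there carry exact 95% Poisson intervals. The steps were also run on simulated counts, whose means, spread and library sizes were taken from this fit, and no result here rests on them.

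The rule for named genes was all 10 members in every comparison, up to 3 called genes of each other list with the smallest adjusted p at 2 h in WT cells and up to 2 called against the majority, the 3 genes most like each member, and ATF4. The members and lists were chosen with earlier results of these data known, so no pattern among them is independent support. Results were recomputed with RLE scaling, with DESeq2 1.42.0, with no filter on low counts, with only the groups of a contrast, with a replicate block, with limma 3.58.1 on log2(TPM + 1) or log2(TPM + 0.1), with that TPM fit without the third untreated ATF4KO column, and by leaving out each library. Gene spans, exons and 3′ UTRs came from the GENCODE annotation of GRCh38, and promoter windows from RefSeq (GRCh38.p14), matched by symbol.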

Additional observations from a re-analysis of the deposited data

Results flagged for a closer look

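The change with dimerizer differed between genotypes for members at every time, by the edgeR quasi-likelihood test of the change in ATF4KO cells minus that in WT cells, with Benjamini-Hochberg adjustment over 19043 genes and 3 wells in each of the 4 groups. At 2 h the difference was −0.31 for IER3 (adjusted p = 0.00061). At 4 h it was −0.62 for NR4A3 (adjusted p = 0.0052), −0.59 for NR4A2 (adjusted p = 0.0035), −0.52 for NR4A1 (adjusted p = 0.00027) and −0.46 for EGR1 (adjusted p = 0.01). IER2 and IER3 both stood at −0.27 at that time (adjusted p = 0.0096 and 0.001). With DESeq2 the 4 h calls of EGR1 and NR4A3 were lost (adjusted p = 0.058 and 0.11), and limma on log2(TPM + 1) called 0 members at 4 h. The NR4A values include the higher untreated level in ATF4KO cells, and at 4 h every ATF4KO well of NR4A2 was above every WT well.

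At 8 h the differences were positive: 1.32 for EGR2 (adjusted p = 0.0024), 1.04 for EGR1 (adjusted p = 2.5e-09), 0.51 for IER5 (adjusted p = 4.9e-09), 0.35 for IER3 (adjusted p = 1.7e-05) and 0.27 for IER2 (adjusted p = 0.0024). At 16 h NR4A2 gave −1.41 (adjusted p = 3e-04), NR4A1 −1.10 (adjusted p = 8.8e-07) and IER5 0.35 (adjusted p = 1.1e-05).

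At 24 h NR4A2 gave −1.69 (adjusted p = 4.1e-08), NR4A3 −1.24 (adjusted p = 0.0015), EGR1 −1.17 (adjusted p = 1.3e-09) and NR4A1 −0.88 (adjusted p = 1e-06). IER2 gave −0.30 (adjusted p = 0.00082), IER3 −0.26 (adjusted p = 0.0025) and IER5 0.33 (adjusted p = 3.4e-05). For EGR1, IER2 and IER3 the difference was thus negative at 4 and 24 h and positive at 8 h. No cause of these differences was tested.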

How the results depend on the processing

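Counts limit EGR3 and NPAS4 most, with 3 or fewer in some groups from 8 h on, and intervals there cover counting error only. The wells may be technical repeats of a culture, the number of ATF4KO clones is not given, and no vehicle or untreated wells were taken late. Among the 98 member values printed, RLE scaling kept the direction and the side of the threshold of 98, DESeq2 of 83 (8 lost and 1 gained a call, the rest had no adjusted p), the fit without a low-count filter of 89 (2 lost, 7 gained) and the fit to the groups of a contrast alone of 93 (3 gained, the rest gave no value). The cause of the changes below was not tested.

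The labels link samples of different groups by a replicate number only, and what it stands for is not given. In 0 of 24 contrasts did every same-numbered pair correlate over 0.1, but 20 of 36 libraries correlated best with their own number among the 3 numbers. How many would do so with no link between numbers was not computed. Replicate 1 was the lowest well of NR4A1, NR4A2 and NR4A3 at 0, 2, 4 and 8 h in each genotype. That order did not hold for all 3 genes at 16 h in WT cells or at 24 h in either genotype. The main fit leaves the number out. The fit with a replicate block kept 94 of the 98 values and added 4 calls. With the replicate block 2 members were called for the difference between genotypes at 2 h, where 1 was without it, and 5 at 16 h, where 3 were. The fit without a low-count filter called 5 members at 2 h and 5 at 16 h, and the fit to the 4 groups alone called 5 at 16 h.

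With each library left out in turn, the count of members called for the difference at 2 h ran from 1 to 3, with 3 without WT 2 h replicate 1. Values near 0 that were not called took either sign: EGR3 at 2 h in WT cells (−0.09 to 0.30), NPAS4 at 2 h in WT cells (−0.15 to 0.07), EGR3 at 2 h in ATF4KO cells (−0.03 to 0.35), NPAS4 at 2 h in ATF4KO cells (−0.12 to 0.13), EGR1 in untreated ATF4KO over WT cells (−0.06 to 0.01), EGR3 in the same comparison (−0.34 to 0.03), IER3 there (0 to 0.02), EGR3 from 4 to 8 h in ATF4KO cells (−0.52 to 0.07) and IER2 over that step (−0.01 to 0.04). Of the other values so refitted, 719 kept direction and side, 29 lost and 2 gained a call.

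The TPM fits with all columns hold the untreated ATF4KO column that matches no count library, and 27 of the 98 values changed sign on each scale, given here for log2(TPM + 1) and then log2(TPM + 0.1). In untreated ATF4KO over WT cells they were EGR2 −0.97 and −1.19, NR4A1 −0.95 and −0.96, NR4A2 −0.24 and −0.32, NR4A3 −0.75 and −0.91, IER2 −0.50 and −0.50, IER3 −0.69 and −0.70. For the difference between genotypes at 2 h they were EGR1 0.75 and 0.77, NR4A2 0.85 and 0.94, NR4A3 1.28 and 1.44, IER2 0.34 and 0.34, IER3 0.40 and 0.40. At 4 h they were EGR1 0.60 and 0.62, NR4A1 0.87 and 0.88, NR4A2 0.65 and 0.76, NR4A3 0.99 and 1.15, IER2 0.31 and 0.31, IER3 0.49 and 0.49. At 16 h they were EGR1 0.66 and 0.66, NR4A1 0.10 and 0.08, NR4A3 0.87 and 1.08. At 24 h they were NR4A1 0.31 and 0.31, NR4A3 0.55 and 0.63, IER2 0.18 and 0.18, IER3 0.43 and 0.43. EGR1 at 4 h in ATF4KO cells gave 0.38 and 0.39, NPAS4 at 2 h in WT cells 0.14 and 0.17, and IER2 from 4 to 8 h in ATF4KO cells −0.01 and −0.01. The members called there numbered 4 on either scale at 2 h in WT cells, 1 at 4 h in WT cells, and 3 and 2 at 4 h in ATF4KO cells. For the difference they numbered 0 at 2 h, 0 at 4 h, 2 at 8 h, 1 at 16 h and 1 at 24 h, and 1 between untreated genotypes. Over the later steps they were 6 for log2(TPM + 1) from 8 to 16 h in ATF4KO cells, 4 and 5 over that step in WT cells, and 0 from 16 to 24 h in either. Without that column, log2(TPM + 1) called 0 members for the difference at 2 h, 0 at 4 h and 3 between untreated genotypes, and 4 uncalled values changed sign, EGR1 to 0.04 and EGR3 to 0.11 between untreated genotypes, NPAS4 to 0.14 at 2 h in WT cells and IER2 to −0.01 from 4 to 8 h in ATF4KO cells.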
